A study of Rattus norvegicus with 27 samples.

Results

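The genes described here are 71 genes of rat Schwann cells whose mRNA was lower both during treatment with dibutyryl cyclic AMP (dbcAMP) and 72 h after its withdrawal than in cells that never received it. They were chosen from the cell mRNA table of 17315 gene rows by their measured levels. Counts were scaled to CPM, the count per 1000000 counts of the library, the mean CPM over the 3 libraries of a stage was taken, 1 was added, and the log2 of the undifferentiated stage had to exceed that of both later stages by at least 1.5. That difference is called the drop below. In all, 74 rows (0.427%) met both drops, and Gap43, Lmo7 and Grb10 were left out by name, which gave the 71 members. Because these values chose the members, the drops are described and carry no test.

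The cells were purchased primary rat Schwann cells, used at passages 3 to 5. All were plated and grown in complete growth medium. Undifferentiated cells (3 mRNA libraries) received no dbcAMP. The differentiated cells (3 libraries) were harvested after 72 h in 1 mM dbcAMP in DMEM with 1% exosome-depleted serum, following a night in the same low-serum medium. Dedifferentiated cells (3 libraries) had the same 72 h of dbcAMP and then 72 h in complete medium with 10% exosome-depleted serum, forskolin and neuregulin and without dbcAMP. Forskolin activates adenylyl cyclase, the enzyme that makes cyclic AMP, so withdrawal of dbcAMP was not withdrawal of every agent acting on this pathway. Of the medium in which undifferentiated cells were harvested, the labels say only that it lacked dbcAMP, so a change of stage and a change of medium cannot be told apart. Cells of 1 purchased cell type were used throughout, and nothing in the labels says whether the 3 biological replicates were separate cultures or preparations, so p-values measure the spread between these libraries. Replicate 3 of every stage was sequenced in another project (11026) than replicates 1 and 2 (9987). Extracellular vesicle (EV) miRNA and EV lncRNA libraries of the same 3 stages, 9 of each, are used only where they hold a row that belongs to a member.

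Schwann cells are the glia of peripheral nerves. In development and in culture, cyclic AMP analogues move them from a proliferating, immature state towards the myelinating state, in which myelin genes are turned on and genes of the immature state, many of them for matrix, adhesion and growth factor signalling, are turned down. After nerve injury the process runs backwards: cells leave the myelinating state, turn immature-state genes on again and remodel the matrix through which axons regrow. Withdrawal of the cyclic AMP analogue from a culture is used as a simple model of that reversal.

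The mRNA libraries held 10058735 to 16212278 counts each, so that 3 counts correspond to 0.185 to 0.298 CPM. Of the 502 rows (2.9%) with a drop of 1.5 or more in differentiated cells, 428 were within 1.5 of the undifferentiated level after withdrawal. A drop of 1.5 or more in dedifferentiated cells was met by 88 rows (0.508%), of which 14 did not drop as far in differentiated cells. The check of cell type rested on fixed marker lists. Of 10 Schwann cell markers, 9 were in the table and all 9 had counts. Their summed level was 9431 to 10136 CPM in undifferentiated, 11336 to 15355 CPM in differentiated and 24517 to 29491 CPM in dedifferentiated libraries. All 12 fibroblast markers were in the table and summed to 24406 to 29130, 12017 to 15683 and 16042 to 19581 CPM at the 3 stages. Nearly all of that sum came from Col1a1 and Col1a2, which Schwann cells also express. Col3a1 rose over the 3 stages, with means of 53.2, 92.0 and 147 CPM. Twist2 had means of 0.551, 2.21 and 0.563 CPM and Pi16 of 1.81, 2.11 and 1.97 CPM. Lum had no count in any library, and the stage means of Pdgfra, Dcn, Dpt, Thy1, Prrx1 and Tbx18 were below 1 CPM. Of 8 endothelial markers, Cdh5 and Cldn5 had no counts. The list summed to 1.29 to 3.85, 8.33 to 10.57 and 12.03 to 22.9 CPM at the 3 stages, which did not overlap. Vwf had stage means of 0, 0.919 and 10.14 CPM and Tek of 1.26, 6.61 and 5.23 CPM. The 8 macrophage and leukocyte markers summed to 0.725 to 1.90, 3.95 to 5.32 and 1.96 to 3.90 CPM at the 3 stages, with no count for Aif1. Cd68 had stage means of 0.724, 3.41 and 1.36 CPM. The 9 pericyte and smooth muscle markers summed to 126 to 156, 546 to 813 and 324 to 348 CPM at the 3 stages, nearly all of it Pdgfrb, with no count for Rgs5 or Kcnj8. The 8 neuronal markers summed to 119 to 306, 979 to 1336 and 226 to 313 CPM, nearly all of it Nefl and Tubb3, with Snap25, Syt1 and Elavl4 near 0. Of 6 melanocyte markers 4 were in the table, with no count for Mlana. They summed to 13.9 to 17.2, 27.9 to 46.9 and 22.8 to 40.6 CPM at the 3 stages. Tyrp1 had stage means of 0, 23.2 and 0.195 CPM and Mitf of 15.6, 14.8 and 29.2 CPM. No part of these shifts in the levels below was tested, and no member is on a marker list. In bulk RNA, fewer cells that express a gene and less RNA of it per cell cannot be told apart, which holds for every value below.

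**Figure D1:**
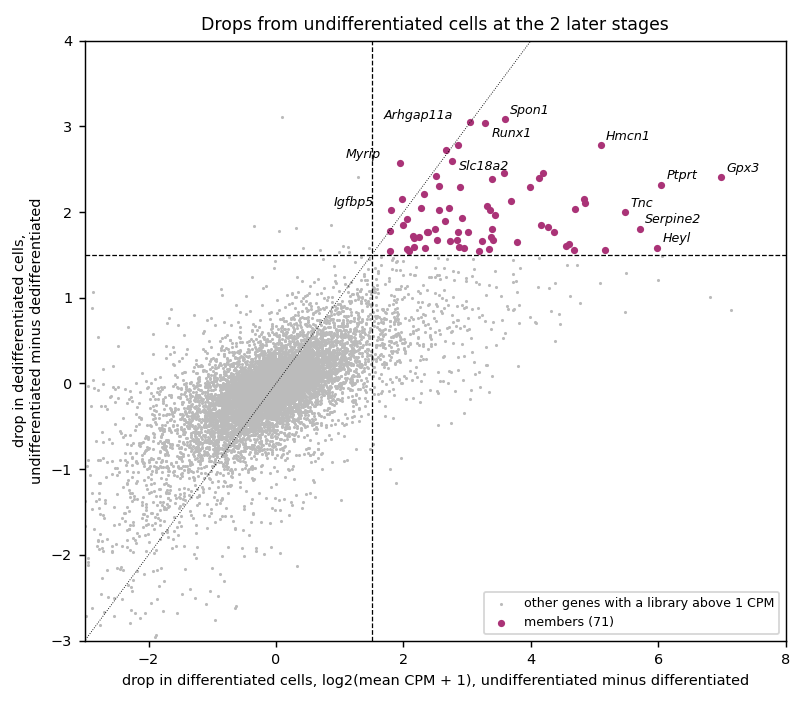
Drop of each gene from undifferentiated to differentiated cells (horizontal) and from undifferentiated to dedifferentiated cells (vertical), both as a difference of log2(mean CPM + 1) over 3 libraries. The 71 members lie above and to the right of the dashed lines at 1.5, 66 of them below the dotted diagonal, where the drop in differentiated cells is the larger. Gray points are other genes with more than 1 CPM in at least 1 library, and genes outside the axis ranges are not drawn.

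Members dropped by 1.79 to 6.99 (median 3.01) in differentiated cells and by 1.54 to 3.08 (median 1.85) in dedifferentiated cells. Put as shares of the undifferentiated mean CPM, they stood at 0 to 28.2% (median 4.95%) under dbcAMP and at 2.64 to 33.7% (median 23.0%) after withdrawal. The share of the dbcAMP drop still present 72 h after withdrawal ranged from 26.5% to 132%, with a median of 62.4%. It was at least 90% in 14 members, at least 50% in 52 and less than 50% in 19. Because 1 is added to the mean CPM, this share depends on that setting. It runs high where both later levels are near the floor, even if they differ several-fold. Pak3 is among the 14, with no differentiated count and 7 dedifferentiated counts. Spon1 kept 86% of its drop, although its pooled dedifferentiated CPM was 10.9 times its pooled differentiated CPM. Mean levels in undifferentiated cells ran from 3.71 to 4298 CPM, with 16 members under 10 CPM, 40 from 10 to under 100 CPM and 15 at 100 CPM or more. All 71 passed the filter on low counts, which for these genes means only that they were high in undifferentiated cells. Every undifferentiated library was above every differentiated library for all 71 members (27.4% of all 10372 tested genes), and above every dedifferentiated library for 69 (17.1% of tested genes). The exceptions were Bgn and Nt5e, whose first undifferentiated library was low. The rule used both of these contrasts, so nothing is read from these counts.

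The threshold cut through a continuous range. Just inside were Sulf2, Crabp2 and Dok2, each with a smaller drop of 1.54. Just outside were Sema3e at 1.49 and Pxdn and Ltbp2 at 1.47 each. Sema3e, a semaphorin, had a mean of 411 CPM in undifferentiated cells and 5.20 CPM under dbcAMP, and stood at 146 CPM after withdrawal.

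**Figure D2:**
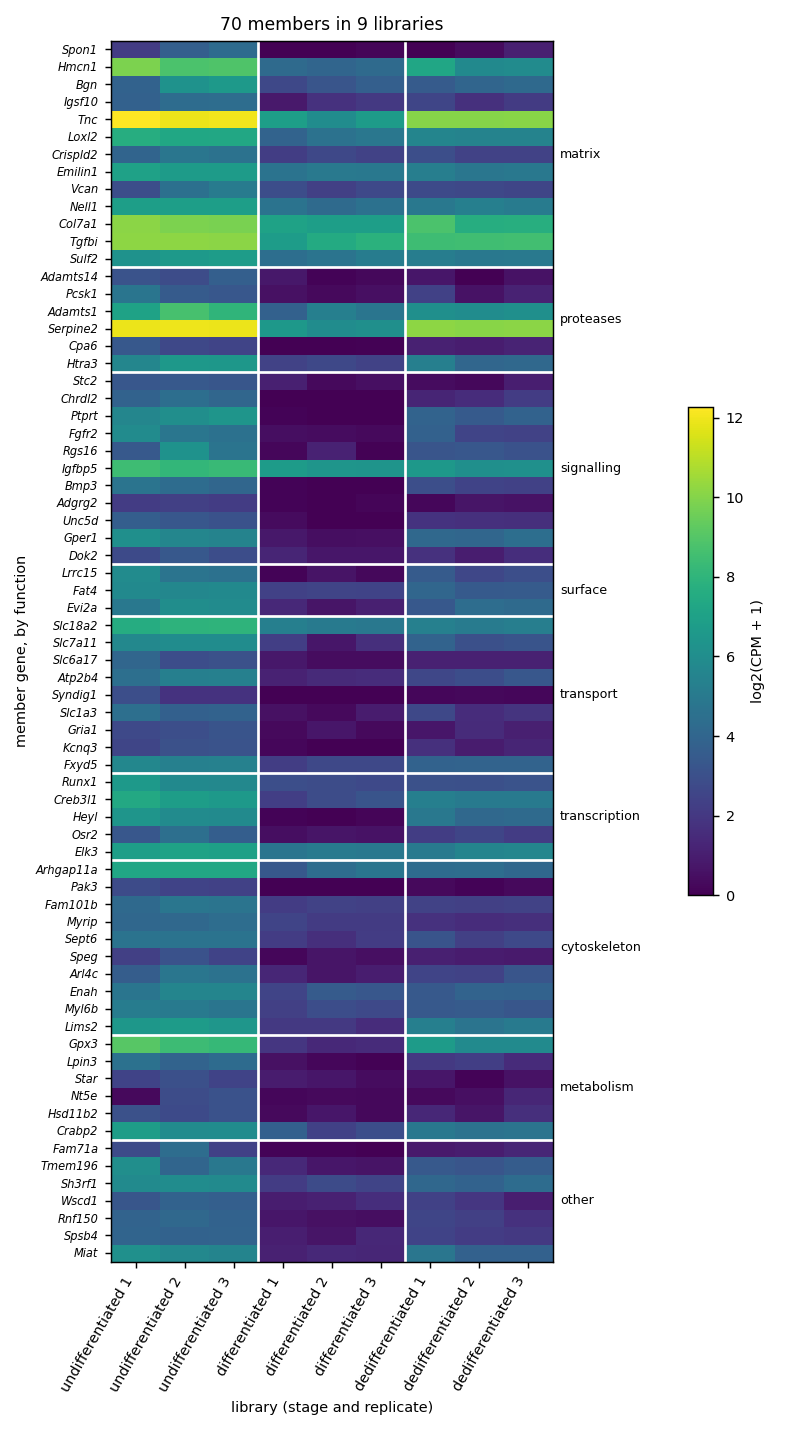
Level of 70 of the 71 members, log2(CPM + 1), in each of the 9 mRNA libraries (columns, by stage and replicate), with genes (rows) grouped by textbook function and sorted within a group by the smaller of the 2 drops. The undifferentiated columns are the brightest for every group, and the mean level of the dedifferentiated columns is above that of the differentiated columns in all rows but Arhgap11a, Stc2, Star, Myrip and Igfbp5.

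The rule sets an upper limit for both later stages but does not say which of them is higher, so dedifferentiated and differentiated cells were compared by a test over all 10372 genes (edgeR quasi-likelihood test, Benjamini-Hochberg adjustment, called below 0.05). The same 9 libraries had chosen the members, by their levels at both of these stages, so the counts and the median below are descriptions and support nothing about the members as a set. Of the 71, 47 were called higher in dedifferentiated cells (23.2% of all tested genes were), 1 was called lower (23.2% of tested genes) and 23 were not called (53.6% of tested genes). Of those 23, 4 had an unadjusted p below 0.05. The members' median log2 change on withdrawal was 1.95, or 1.77 with the 3 members that had no differentiated count set to their lower bound, against -0.01 over all tested genes. All dedifferentiated libraries lay above all differentiated libraries in 49 members (28.3% of tested genes) and below them in 1 (30.2% of tested genes).

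Within project 9987 alone (replicates 1 and 2) 66 of the 71 met both drops, and within project 11026 alone (replicate 3) 58 did. The smallest drop of any member in either project was 1.07. Both projects had helped to choose the members, so these values are a description. When the rule was applied to replicates 1 and 2 only, it chose 77 genes, of which 53 (68.8%) met both drops of 1.5 in replicate 3, where 0.439% of all rows did. Applied to replicate 3 only, it chose 73 genes, of which 53 (72.6%) met both drops in replicates 1 and 2, where 0.462% of all rows did. All 77 and 71 of the 73, respectively, were below the undifferentiated level at both later stages in the libraries that had not chosen them. The share of all rows that were so was not computed, so nothing is read from these 2 counts. In those libraries the median smaller drop of the chosen genes was 1.74 and 1.79, against -0.21 and -0.24 over all tested genes.

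Libraries of a stage differed more for members than for genes at large. The median coefficient of variation of CPM was 23.5% in undifferentiated, 37.2% in differentiated and 24.4% in dedifferentiated libraries, against 10.9%, 9.55% and 10.5% over all tested genes. Counts of the members are low under dbcAMP, and the part of counting error in this spread was not tested. Undifferentiated replicate 1 lay at least 1.5-fold above both other undifferentiated libraries in 13 members (3.01% of tested genes) and at least 1.5-fold below both in 12 (8.41% of tested genes). Differentiated replicate 1 lay that far above both others of its stage in 18 members (2.61% of tested genes) and below both in 11 (4.44%). Differentiated replicate 2 was that far below both others in 13 (3.05%), and differentiated replicate 3 above both in 11 (2.52%). Dedifferentiated replicate 1 lay at least 1.5-fold above both others in 14 members (4.64% of tested genes). The other counts of this kind, over all libraries and both directions, were 0 to 9 members. Without differentiated replicate 1 the rule gave 72 genes. Without undifferentiated replicate 1 the rule gave 69 genes, 62 of them among the 71. Without dedifferentiated replicate 1 it gave 86, and 68 of the 71 were among them.

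Promoter sequences are shown for 5 members to let the reader see the DNA at these start sites: Slc18a2 because it holds a cyclic AMP response element, Lrrc15 and Slc6a17 as examples of the AP-1 word, which Lpin3 (not shown) also holds, and Tnc and Serpine2 because they took the most reads of all members. Each is 250 bases before to 50 bases after the RefSeq transcription start (build GRCr8), 5′ to 3′ on the strand of the gene. Capitals mark matches, on either strand, to the cyclic AMP response element TGACGTCA, the AP-1 word TGANTCA, the TEAD word GGAATG, the RUNX word TGTGGT or the GC box GGGCGG. No match of 1 word overlaps a match of another in these 5, though some GC boxes of Serpine2 overlap or adjoin. A RefSeq promoter was at hand for 50 of the 71 members.
Slc18a2 (chr1:268399771-268400070, plus strand): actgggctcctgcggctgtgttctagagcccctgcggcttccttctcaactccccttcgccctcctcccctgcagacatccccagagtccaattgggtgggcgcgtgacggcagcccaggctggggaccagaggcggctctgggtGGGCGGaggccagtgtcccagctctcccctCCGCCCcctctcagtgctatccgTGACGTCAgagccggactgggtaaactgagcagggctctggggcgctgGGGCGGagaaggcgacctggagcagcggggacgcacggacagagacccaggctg
Lrrc15 (chr11:83974458-83974757, plus strand): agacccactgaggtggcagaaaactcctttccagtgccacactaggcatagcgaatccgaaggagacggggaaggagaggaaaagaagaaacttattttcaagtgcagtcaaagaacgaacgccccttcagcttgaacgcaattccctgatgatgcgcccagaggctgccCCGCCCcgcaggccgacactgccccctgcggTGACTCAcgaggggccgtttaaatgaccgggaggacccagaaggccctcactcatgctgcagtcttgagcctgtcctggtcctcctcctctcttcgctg
Slc6a17 (chr2:197843834-197844133, minus strand): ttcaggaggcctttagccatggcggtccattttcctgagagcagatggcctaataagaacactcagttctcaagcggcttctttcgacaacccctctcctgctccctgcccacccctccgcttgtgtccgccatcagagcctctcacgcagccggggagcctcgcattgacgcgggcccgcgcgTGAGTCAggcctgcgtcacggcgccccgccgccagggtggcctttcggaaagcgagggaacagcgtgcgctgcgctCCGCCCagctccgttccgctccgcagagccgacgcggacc
Tnc (chr5:82476082-82476381, minus strand): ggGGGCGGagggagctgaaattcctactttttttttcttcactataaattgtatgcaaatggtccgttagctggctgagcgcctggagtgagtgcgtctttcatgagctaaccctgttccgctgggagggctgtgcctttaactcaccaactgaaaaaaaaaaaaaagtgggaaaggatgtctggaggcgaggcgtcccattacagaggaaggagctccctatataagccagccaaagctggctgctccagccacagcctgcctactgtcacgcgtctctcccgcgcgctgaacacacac
Serpine2 (chr9:88637153-88637452, minus strand): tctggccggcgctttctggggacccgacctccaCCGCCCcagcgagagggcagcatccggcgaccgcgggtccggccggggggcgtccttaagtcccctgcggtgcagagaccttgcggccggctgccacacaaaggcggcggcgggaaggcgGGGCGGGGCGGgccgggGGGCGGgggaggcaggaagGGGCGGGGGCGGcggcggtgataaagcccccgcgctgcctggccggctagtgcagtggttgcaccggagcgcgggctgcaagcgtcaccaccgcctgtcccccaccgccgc

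In the Slc18a2 window the full cyclic AMP response element begins 52 bases before the start, between GC boxes. Lrrc15 carries TGACTCA from base -49 and Slc6a17 carries TGAGTCA from base -66. Tnc holds a GC box at base -248 alone, and Serpine2 holds 6 GC boxes, 5 of them within 97 bases of the start. The cyclic AMP response element was found in 1 of 50 members (2.0%), the AP-1 word in 3 (6.0%; Lpin3, Lrrc15 and Slc6a17), the TEAD word in 5 (10%), the RUNX word in 3 (6.0%) and the GC box in 30 (60%). Over the promoters of tested genes the same shares were 3.47%, 4.55%, 11.0%, 11.8% and 64.8%, and over all 27457 promoters of the table they were 1.91%, 7.33%, 13.9%, 16.9% and 34.9%. These are matches of letters in a 300-base window and say nothing of whether a factor binds there.

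The largest group by textbook function was 13 genes of the extracellular matrix and its cross-linking or modification, with a median drop of 2.72 under dbcAMP and 1.92 after withdrawal. On withdrawal 6 of the 13 rose (were called higher) and 7 were not called. Of all 71 members 47 rose, and of all tested genes 23.2% did. The groups were made after the members were known, so their counts, here and below, are descriptions and not traits of a group. Tnc encodes tenascin-C, a matrix glycoprotein of developing and injured nerve. Tnc read 4919.9, 3868 and 4106 CPM in the 3 undifferentiated libraries, 118, 61.5 and 106 CPM in the differentiated libraries and 1061, 1064 and 1096 CPM in the dedifferentiated libraries. The 3 stages did not overlap, and the log2 change on withdrawal was 3.51 ± 0.225 SE (adjusted p = 9.50e-07, edgeR), which left 36.5% of the drop. Tgfbi read 1172, 1153 and 1116 CPM in the 3 undifferentiated libraries, 107, 178 and 229 CPM in the differentiated libraries and 346, 366 and 369 CPM in the dedifferentiated libraries. Tgfbi, a TGF-beta-induced protein that links matrix to integrins, rose by a log2 change of 1.09 ± 0.201 SE (adjusted p = 0.00137, edgeR) and kept 61% of its drop.

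Col7a1 encodes the chain of collagen VII, the collagen of anchoring fibrils. Col7a1 read 1111, 917 and 895 CPM in the 3 undifferentiated libraries, 131, 115 and 115 CPM in the differentiated libraries and 445, 202 and 208 CPM in the dedifferentiated libraries. It rose on withdrawal by a log2 change of 1.26 ± 0.27 SE (adjusted p = 0.00331, edgeR), and dedifferentiated replicate 1 was the highest of its stage. Without it the change was 0.79 (edgeR adjusted p = 7.85e-04). Hmcn1, for hemicentin-1, a very large matrix protein, had the same library highest. Hmcn1 read 922, 449 and 471 CPM in the 3 undifferentiated libraries, 18.1, 15 and 17.9 CPM in the differentiated libraries and 152, 55.5 and 58.7 CPM in the dedifferentiated libraries. Its change of 2.40 ± 0.424 SE (adjusted p = 0.00103, edgeR) became 1.77 (edgeR adjusted p = 0.00141) without dedifferentiated replicate 1. Loxl2, which cross-links collagen and elastin, went from 173 ± 24.5 CPM (mean ± SD, n = 3 libraries, as for all such values below) to 22 ± 7.17 and 44.6 ± 2.12 CPM, a log2 rise on withdrawal of 1.03 ± 0.203 SE (adjusted p = 0.00198, edgeR). Nell1, a secreted thrombospondin-like protein, was nearly constant within undifferentiated cells at 118 ± 0.851 CPM, stood at 21.8 ± 3.58 CPM under dbcAMP and at 33.8 ± 4.38 CPM after withdrawal, with a log2 change of 0.64 ± 0.133 SE (adjusted p = 0.00282, edgeR).

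The other 7 matrix genes were not called on withdrawal. Emilin1 read 130.5, 106 and 107 CPM in the 3 undifferentiated libraries, 24.7, 30.0 and 29.2 CPM in the differentiated libraries and 36.6, 27.2 and 29.3 CPM in the dedifferentiated libraries. Emilin1, an elastic fibre glycoprotein, thus overlapped between the later stages, with a log2 change of 0.17 ± 0.141 SE (adjusted p = 0.355, edgeR). Sulf2, which removes sulphate groups from heparan sulphate outside the cell, stood at 94.4 ± 18.3, 26.6 ± 6.8 and 31.8 ± 3.64 CPM in undifferentiated, differentiated and dedifferentiated cells, with a log2 change of 0.27 ± 0.181 SE (adjusted p = 0.249, edgeR). Without differentiated replicate 3 the change of Sulf2 was 0.48 (edgeR adjusted p = 0.0473). The proteoglycans Vcan (versican) and Bgn (biglycan) varied widely among undifferentiated libraries, at 6.77, 22.4 and 33 CPM for Vcan and 13.7, 75.7 and 97.5 CPM for Bgn, with replicate 1 the lowest of both. Vcan kept 99.3% of its drop (log2 change 0.02 ± 0.464 SE, edgeR adjusted p = 0.973) and Bgn 75.5% (log2 change 0.73 ± 0.579 SE, edgeR adjusted p = 0.324). Without undifferentiated replicate 1 the change of Bgn was 0.73 (edgeR adjusted p = 0.0435). Crispld2, a secreted cysteine-rich protein, stood at 21.9 ± 6.4, 4.49 ± 0.789 and 5.06 ± 1.35 CPM and kept 93.1%. Igsf10, a secreted immunoglobulin-family protein, stood at 17.4 ± 3.93, 2.12 ± 1.19 and 3.53 ± 1.32 CPM.

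Spon1 (F-spondin) had the largest smaller drop of all members, 3.08, on few counts. It read 3.47, 12.2 and 18.8 CPM in undifferentiated cells, 0, 0 and 0.123 CPM under dbcAMP and 0, 0.298 and 1.13 CPM after withdrawal. Only 2 counts stood behind the differentiated value, and the ratio of the pooled dedifferentiated to the pooled differentiated CPM was 10.9, with a 95% exact interval of 2.62 to 97.3; this and the other such intervals cover counting error only. The edgeR adjusted p of its change was 0.127.

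Of 6 proteases and protease inhibitors, 5 rose on withdrawal and 1 was not called. Serpine2 encodes protease nexin-1, a secreted inhibitor of thrombin and plasminogen activators. Serpine2 read 3812, 4013 and 3894 CPM in the 3 undifferentiated libraries, 91.5, 61.7 and 67.5 CPM in the differentiated libraries and 1171, 1069 and 1109 CPM in the dedifferentiated libraries. The libraries of each stage lay close together and the stages did not overlap. With a log2 change of 3.93 ± 0.156 SE (adjusted p = 5.02e-08, edgeR) Serpine2 had the smallest p among the members, yet after withdrawal it still stood 1.81 below undifferentiated cells, 31.6% of its drop. Adamts1, a metalloprotease that cleaves proteoglycans, varied among undifferentiated libraries (132, 418 and 263 CPM), read 12.9, 37.8 and 26.2 CPM under dbcAMP and an even 68.8, 61.1 and 67.2 CPM after withdrawal, a log2 change of 1.38 ± 0.402 SE (adjusted p = 0.017, edgeR). Htra3, a secreted serine protease, went from 76.7 ± 24.4 to 4.64 ± 0.529 and 23.7 ± 13.2 CPM, a log2 change of 2.37 ± 0.385 SE (adjusted p = 6.00e-04, edgeR).

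Adamts14, a procollagen N-proteinase, was the protease not called. It stood at 7.82, 6.25 and 11.9 CPM in undifferentiated libraries, 0.737, 0.0772 and 0.185 CPM under dbcAMP and 0.678, 0 and 0.527 CPM after withdrawal, which are a few counts per library at the later stages (log2 change 0.35 ± 0.884 SE, edgeR adjusted p = 0.766). Pcsk1, a prohormone convertase, was called higher at 4.15, 0.497 and 1.28 CPM after withdrawal against 0.442, 0.232 and 0.432 CPM under dbcAMP, with a log2 change of 2.41 ± 0.845 SE (adjusted p = 0.0379, edgeR). That call was lost without dedifferentiated replicate 1, where the change was 1.31 (edgeR adjusted p = 0.226), and without any 1 of the 3 differentiated libraries (edgeR adjusted p 0.0754 to 0.103). Cpa6, a carboxypeptidase, had 1 count in the differentiated libraries and 42 in the dedifferentiated libraries, a CPM ratio of 51.1, with a 95% exact interval of 8.68 to 2065, and was called higher (edgeR adjusted p = 3.47e-04).

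The 11 genes of secreted signals, receptors and their adaptors had a median drop of 4.13 under dbcAMP, and 8 of them rose on withdrawal and 3 were not called. Among the ligands and their binding proteins, Bmp3, a BMP family ligand, read 25.7, 18.9 and 15.7 CPM in undifferentiated cells, 0.0737, 0 and 0 CPM under dbcAMP, a single count, and 6.78, 4.57 and 4.21 CPM after withdrawal. Its ratio of dedifferentiated to differentiated CPM was 221, with a 95% exact interval of 39.2 to 8789, and it was called higher (edgeR adjusted p = 6.65e-06). Chrdl2, a chordin-like BMP antagonist, moved alongside it. It read 13.4, 20.5 and 15.8 CPM in undifferentiated cells, had no count in any differentiated library and read 1.44, 1.99 and 3.54 CPM after withdrawal, at least 34.1-fold higher than a floor of 3 counts over the 3 differentiated libraries (edgeR adjusted p = 1.39e-04). Both remained below every undifferentiated library.

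Igfbp5, which binds insulin-like growth factors, behaved otherwise. Igfbp5 read 348, 281 and 321 CPM in the 3 undifferentiated libraries, 106, 83 and 79.8 CPM in the differentiated libraries and 93, 67.9 and 69.4 CPM in the dedifferentiated libraries. The later stages overlapped, with a log2 change of -0.21 ± 0.156 SE (adjusted p = 0.30, edgeR), and Igfbp5 was 1 of the 5 members whose drop was larger after withdrawal (2.03) than under dbcAMP (1.81). Stc2, for the secreted glycoprotein stanniocalcin-2, kept 102% of its drop, at 9.15 ± 0.58, 0.589 ± 0.458 and 0.53 ± 0.458 CPM, a few counts per library at the later stages.

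The 5 receptors all rose, as did 47 of all 71 members and 23.2% of tested genes. Ptprt, a receptor-type tyrosine phosphatase, had a single count in the differentiated libraries. Ptprt read 49.2, 65.7 and 84.1 CPM in the 3 undifferentiated libraries, 0.0737, 0 and 0 CPM in the differentiated libraries and 13.8, 10.0 and 13.5 CPM in the dedifferentiated libraries. The ratio of dedifferentiated to differentiated CPM was 539.9, with a 95% exact interval of 96.4 to 21373, and Ptprt was called higher (edgeR adjusted p = 4.92e-07). Gper1 read 66.9, 48.6 and 43.8 CPM in the 3 undifferentiated libraries, 0.737, 0.386 and 0.432 CPM in the differentiated libraries and 16.4, 15.5 and 20.2 CPM in the dedifferentiated libraries. For Gper1, a G protein-coupled receptor that binds oestrogen, the log2 change was 5.07 ± 0.293 SE (adjusted p = 5.03e-07, edgeR), and 30.2% of the drop remained. Fgfr2, a receptor tyrosine kinase for fibroblast growth factors, had its highest reading in replicate 1 of undifferentiated (59.2, 26.7 and 22.6 CPM) and of dedifferentiated cells (13.1, 4.67 and 4.29 CPM), and read 0.368, 0.309 and 0.247 CPM under dbcAMP. Its log2 change was 4.56 ± 0.745 SE (adjusted p = 6.20e-04, edgeR), or 3.85 without dedifferentiated replicate 1. In 1 library its count is fractional, a sign that some reads were shared with another row.

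Unc5d, of the netrin receptor family, had counts in 1 differentiated library only (0.295, 0 and 0 CPM) against 11.7, 8.94 and 7.46 CPM in undifferentiated and 2.46, 2.29 and 2.11 CPM in dedifferentiated cells. It rose by a log2 change of 4.47 ± 0.673 SE (adjusted p = 3.57e-04, edgeR). Without that library no differentiated count remained, so the fitted change of 7.87 is not a measured size. Adgrg2, an adhesion G protein-coupled receptor, was called higher on 15 dedifferentiated against 3 differentiated counts, a ratio of 6.08, with a 95% exact interval of 1.72 to 32.8 and an edgeR adjusted p of 0.0222. Leaving out differentiated replicate 1 or 2, or dedifferentiated replicate 2 or 3, ended that call (edgeR adjusted p 0.051 to 0.0741). Downstream of receptors, Rgs16, a regulator of G protein signalling, read 9.83, 76.4 and 25.3 CPM in undifferentiated, 0.147, 1.23 and 0.0617 CPM in differentiated and 8.56, 8.95 and 7.52 CPM in dedifferentiated cells. Undifferentiated replicate 1 lay just above the dedifferentiated libraries, so the membership of Rgs16 rests on the other undifferentiated libraries. The log2 change on withdrawal was 4.20 ± 0.96 SE (adjusted p = 0.00482, edgeR). Without differentiated replicate 2 the change was 6.24, on counts of 2 and 1 in the other libraries of that stage. The docking protein gene Dok2 stood at 7.16 ± 1.9, 0.924 ± 0.412 and 1.8 ± 0.718 CPM and was not called (log2 change 0.99 ± 0.43 SE, edgeR adjusted p = 0.082). It was called without differentiated replicate 1, at 1.42 (edgeR adjusted p = 0.0332), and without dedifferentiated replicate 2, at 1.26 (edgeR adjusted p = 0.0377).

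Another 3 members encode cell surface proteins, and all rose, as did 47 of all 71 members and 23.2% of tested genes. Fat4 is an atypical cadherin. Fat4 read 55.1, 50.9 and 54.6 CPM in the 3 undifferentiated libraries, 4.2, 4.78 and 4.44 CPM in the differentiated libraries and 15.3, 10.1 and 10.5 CPM in the dedifferentiated libraries. Its log2 change was 1.44 ± 0.173 SE (adjusted p = 7.86e-05, edgeR), and 62.4% of the drop remained. Lrrc15, a leucine-rich repeat membrane protein, went from 35.5 ± 20.1 to 0.266 ± 0.244 and 7.48 ± 2.74 CPM, a log2 change of 4.83 ± 0.68 SE (adjusted p = 2.33e-04, edgeR), or 5.72 without differentiated replicate 2. Its promoter holds the AP-1 word shown above. Evi2a, a membrane protein gene that lies within an intron of Nf1, went from 50.9 ± 18.6 to 1.14 ± 0.539 and 15.8 ± 5.78 CPM (log2 change 3.78 ± 0.444 SE, edgeR adjusted p = 6.64e-05).

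Transporters, channels and their partners made up 9 members, of which 6 rose on withdrawal and 3 were not called. Slc18a2 encodes VMAT2, which loads monoamines into vesicles. Slc18a2 read 191, 242 and 249 CPM in the 3 undifferentiated libraries, 38.2, 30.7 and 29.4 CPM in the differentiated libraries and 39.8, 33.1 and 37.5 CPM in the dedifferentiated libraries. The later stages overlapped, the log2 change was 0.18 ± 0.133 SE (adjusted p = 0.289, edgeR) and 94.1% of the drop remained. It was the only member of the 50 searched whose promoter window holds the full cyclic AMP response element. Slc7a11, the cystine-glutamate exchanger xCT, behaved differently. Slc7a11 read 51.1, 61.3 and 60.8 CPM in the 3 undifferentiated libraries, 3.9, 0.695 and 2.1 CPM in the differentiated libraries and 13.7, 7.06 and 8.2 CPM in the dedifferentiated libraries. It rose by a log2 change of 2.12 ± 0.415 SE (adjusted p = 0.00195, edgeR), or 2.75 without differentiated replicate 1, and kept 58.8% of its drop. Slc1a3, the glutamate transporter GLAST, went from 15.7 ± 4.87 to 0.533 ± 0.356 and 3.27 ± 1.75 CPM, a log2 change of 2.56 ± 0.527 SE (adjusted p = 0.00258, edgeR), or 3.24 without differentiated replicate 3.

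Atp2b4, a plasma membrane calcium pump, read 21.3, 38.3 and 40.2 CPM, then 1.25, 1.77 and 1.91 CPM under dbcAMP and 5.17, 6.36 and 8.95 CPM after withdrawal (log2 change 2.06 ± 0.315 SE, edgeR adjusted p = 4.06e-04). Fxyd5, a regulator of the sodium pump, went from 43.7 ± 5.54 to 4.78 ± 0.95 and 13.9 ± 0.242 CPM (log2 change 1.55 ± 0.165 SE, edgeR adjusted p = 3.39e-05). Slc6a17, which carries neutral amino acids into vesicles, stood at 9.75 ± 4.98, 0.451 ± 0.247 and 1.19 ± 0.0084 CPM. Its log2 change of 1.41 ± 0.547 SE (adjusted p = 0.0552, edgeR) missed the threshold, although each dedifferentiated library was above each differentiated library. It passed without undifferentiated replicate 1 or 2 or differentiated replicate 1 (edgeR adjusted p 0.0174 to 0.0458) and with the DESeq2 Wald test (adjusted p = 0.0265).

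The remaining 3 transport genes had few counts under dbcAMP. Gria1, an AMPA receptor subunit, read 5.56, 6.83 and 7.98, then 0.221, 0.695 and 0.247 and 0.678, 1.89 and 1.13 CPM. It was called higher with a log2 change of 1.67 ± 0.521 SE (adjusted p = 0.023, edgeR), but its later stages overlapped, and the call ended without differentiated replicate 1 or 3 or dedifferentiated replicate 2 (edgeR adjusted p 0.0719 to 0.0913). Without differentiated replicate 2 the change was 2.33. Syndig1, which acts on AMPA receptors at synapses, had no differentiated count and was at least 2.43-fold higher after withdrawal than the pooled floor, on 0.17, 0.199 and 0.15 CPM, with an edgeR adjusted p of 0.063. Syndig1 was called without undifferentiated replicate 1 (edgeR adjusted p = 0.0216) and by the DESeq2 Wald test (adjusted p = 0.0227), on 2 counts in each dedifferentiated library. Kcnq3, a voltage-gated potassium channel subunit, went from 2 differentiated to 55 dedifferentiated counts, a ratio of 33.4, with a 95% exact interval of 8.83 to 283 (edgeR adjusted p = 5.39e-04).

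**Figure D3:**
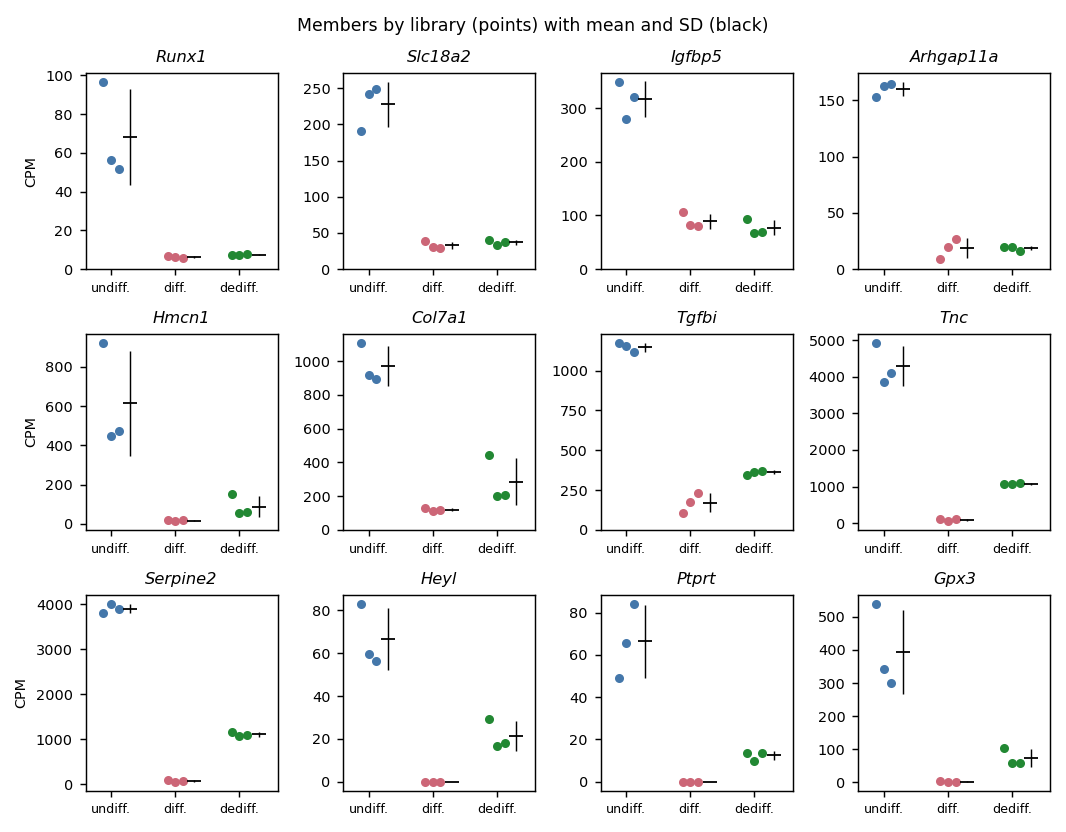
CPM of 12 members in each library (colored points, in the order of replicates 1 to 3) with the mean and SD of the 3 libraries (black) for undifferentiated (undiff.), differentiated (diff.) and dedifferentiated (dediff.) cells. Axes are linear, start at or just below 0 and differ between panels. In the top row the later stages overlap or nearly do, as for Slc18a2 at 29.4 to 38.2 and 33.1 to 39.8 CPM, while in the bottom row the dedifferentiated libraries stand clear of both other stages, as for Serpine2 at 1069 to 1171 CPM.

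Among 6 transcription regulators, 4 rose and 2 were not called. Runx1, a Runt domain factor, was nearly as low after withdrawal as under dbcAMP. Runx1 read 96.5, 56.4 and 51.7 CPM in the 3 undifferentiated libraries, 6.7, 6.17 and 5.61 CPM in the differentiated libraries and 7.29, 7.06 and 7.82 CPM in the dedifferentiated libraries. The later stages were separated by less than 1 CPM, and the log2 change was 0.28 ± 0.262 SE (adjusted p = 0.407, edgeR), with 93% of the drop kept. Undifferentiated replicate 1 was the highest library. Heyl, a Notch-target repressor of the Hairy family, was at the other end of the range. Heyl read 83, 59.8 and 56.5 CPM in the 3 undifferentiated libraries, 0.0737, 0 and 0.123 CPM in the differentiated libraries and 29.5, 16.8 and 18.2 CPM in the dedifferentiated libraries. From 3 differentiated counts in all it rose by a CPM ratio of 308, with a 95% exact interval of 105 to 1495 (edgeR adjusted p = 7.97e-07), so that 26.5% of its drop remained, the smallest share of any member.

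Creb3l1, a membrane-bound factor of the CREB3 family, read 165, 111 and 98.9 CPM in undifferentiated, 3.83, 6.17 and 8.2 CPM in differentiated and 38.7, 31.6 and 31.5 CPM in dedifferentiated cells, a log2 change of 2.48 ± 0.272 SE (adjusted p = 4.03e-05, edgeR). Elk3, an ETS-family ternary complex factor, went from 126 ± 8.24 to 29.3 ± 3.32 and 41.7 ± 8.12 CPM. It was called higher with a log2 change of 0.52 ± 0.135 SE (adjusted p = 0.00945, edgeR), though dedifferentiated replicate 1 (32.5 CPM) lay just under differentiated replicate 2 (32.7 CPM). Osr2, a zinc finger factor, went from 14.1 ± 6.55 to 0.493 ± 0.125 and 4.08 ± 0.779 CPM (log2 change 3.03 ± 0.425 SE, edgeR adjusted p = 2.22e-04).

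The 10 genes of the cytoskeleton, small GTPases and focal adhesion held the only member that fell on withdrawal, with 5 that rose and 4 that were not called. That gene was Myrip, a linker between Rab27 and myosins. Myrip read 16.4, 16.9 and 19.9 CPM in the 3 undifferentiated libraries, 4.79, 3.4 and 3.45 CPM in the differentiated libraries and 2.37, 1.99 and 2.11 CPM in the dedifferentiated libraries. The 3 stages did not overlap, and the fall of 0.83 on the log2 scale (SE 0.214, edgeR adjusted p = 0.00925) took Myrip to 132% of its dbcAMP drop. Arhgap11a, a GTPase-activating protein, had a drop of 3.05 at both later stages. Arhgap11a read 153, 163 and 164 CPM in the 3 undifferentiated libraries, 9.28, 19.8 and 26.5 CPM in the differentiated libraries and 19.3, 19.8 and 16.3 CPM in the dedifferentiated libraries. Its differentiated libraries varied widely and the change on withdrawal was 0.00 ± 0.272 SE (adjusted p = 0.992, edgeR). Lims2, for PINCH-2, an adaptor of integrin-linked kinase, rose. Lims2 read 90.2, 105 and 87.4 CPM in the 3 undifferentiated libraries, 3.09, 3.09 and 1.97 CPM in the differentiated libraries and 38.5, 25 and 30.8 CPM in the dedifferentiated libraries. The log2 change was 3.56 ± 0.213 SE (adjusted p = 6.08e-07, edgeR), and 33.2% of the drop remained.

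Enah (Mena, which promotes actin filament elongation) stood at 39.6 ± 11.6, 8.02 ± 3.01 and 12.5 ± 2.46 CPM, with a log2 change of 0.65 ± 0.297 SE (adjusted p = 0.0954, edgeR), which was not called. Fam101b, for the filamin-binding protein refilin B, kept 95.2% of its drop at 23.5 ± 5.3, 3.91 ± 0.431 and 4.31 ± 0.201 CPM. Pak3, a p21-activated kinase, had no differentiated count and read 0.254, 0.0994 and 0.226 CPM after withdrawal, at least 2.84-fold above the pooled floor (edgeR adjusted p = 0.0127), against 5.88, 4.61 and 4.19 CPM in undifferentiated cells. Arl4c, a small GTPase of the ARF family, went from 20.5 ± 8.32 to 1.03 ± 0.429 and 5.76 ± 2.25 CPM (log2 change 2.50 ± 0.445 SE, edgeR adjusted p = 0.0011). The septin gene Sept6 went from 24.4 ± 0.107 to 3.05 ± 0.767 and 5.85 ± 1.97 CPM (log2 change 0.95 ± 0.261 SE, edgeR adjusted p = 0.0126). Myl6b, a myosin light chain, went from 30.9 ± 4.16 to 5.32 ± 1.24 and 9.62 ± 0.973 CPM, but its counts were fractional in all 9 libraries, so its reads were shared with another row and its values are uncertain. The kinase gene Speg, known from striated muscle, was low throughout at 5.29 ± 1.85, 0.399 ± 0.237 and 0.941 ± 0.143 CPM and was not called (log2 change 1.24 ± 0.509 SE, edgeR adjusted p = 0.0685), though without differentiated replicate 2 its change was 1.63 (edgeR adjusted p = 0.049).

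The 6 genes of metabolism and redox enzymes included the member with the largest dbcAMP drop, 6.99. This was Gpx3, the secreted glutathione peroxidase. Gpx3 read 539, 341 and 301 CPM in the 3 undifferentiated libraries, 2.87, 1.62 and 1.85 CPM in the differentiated libraries and 105, 58.4 and 57.3 CPM in the dedifferentiated libraries. The stages did not overlap, and with a log2 change of 5.13 ± 0.383 SE (adjusted p = 3.03e-06, edgeR) the gene kept 34.5% of its drop. Crabp2, which carries retinoic acid to its receptors, went from 77.8 ± 28.9 to 7.68 ± 4.21 and 26.1 ± 2.42 CPM (log2 change 1.77 ± 0.36 SE, edgeR adjusted p = 0.0024). Lpin3, a phosphatidate phosphatase, went from 18.3 ± 4.22 to 0.219 ± 0.198 and 2.94 ± 1.05 CPM, a log2 change of 3.73 ± 0.538 SE (adjusted p = 2.77e-04, edgeR). Without differentiated replicate 1 the change was 4.71, on counts of 2 and 1 in the other libraries of that stage. Hsd11b2, which inactivates glucocorticoids, read 0.221, 0.695 and 0.185 CPM under dbcAMP and 1.61, 0.597 and 2.18 CPM after withdrawal, against 7.33, 5.67 and 7.66 CPM in undifferentiated cells. Its log2 change of 2.06 ± 0.566 SE (adjusted p = 0.0127, edgeR) was no longer called without replicate 3 of either later stage (edgeR adjusted p 0.0535 and 0.0623), and was 2.84 without differentiated replicate 2.

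Nt5e encodes CD73, which makes adenosine from AMP outside the cell. Nt5e read 0.242, 6.25 and 7.39 CPM in the 3 undifferentiated libraries, 0.147, 0.232 and 0.185 CPM in the differentiated libraries and 0.254, 0.398 and 1.5 CPM in the dedifferentiated libraries. Undifferentiated replicate 1 was at the level of the later stages, so the membership of Nt5e rests on the other two undifferentiated libraries. Its log2 change on withdrawal was 1.95 ± 1.26 SE (adjusted p = 0.229, edgeR), and 1.96 (edgeR adjusted p = 0.043) without that library. Star, the protein that brings cholesterol into mitochondria, stood at 5.4 ± 1.4, 0.629 ± 0.293 and 0.435 ± 0.30 CPM and kept 109% of its drop (log2 change -0.44 ± 0.603 SE, edgeR adjusted p = 0.573).

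Of the last 7 members, 6 rose and 1 was not called. Of these, 3 encode parts of the ubiquitin system: Sh3rf1, an E3 ligase scaffold, Rnf150, a RING finger protein, and Spsb4, a ligase adaptor. Sh3rf1 read 57.3, 62.5 and 58.2 CPM in the 3 undifferentiated libraries, 3.54, 6.02 and 4.69 CPM in the differentiated libraries and 16.2, 13.5 and 19.2 CPM in the dedifferentiated libraries. Sh3rf1 rose by a log2 change of 1.80 ± 0.182 SE (adjusted p = 2.34e-05, edgeR), Rnf150 by 2.90 ± 0.365 SE (adjusted p = 1.04e-04, edgeR) and Spsb4 by 1.74 ± 0.308 SE (adjusted p = 0.00104, edgeR). Fam71a had 2 differentiated counts against 40 after withdrawal, a ratio of 24.3, with a 95% exact interval of 6.31 to 208 (edgeR adjusted p = 0.00999), and 1 of its undifferentiated libraries stood apart (5.88, 20.0 and 4.25 CPM). Tmem196 also varied among undifferentiated libraries (66.3, 15 and 28.9 CPM), and rose from 0.957 ± 0.579 to 9.65 ± 1.21 CPM, a log2 change of 3.36 ± 0.625 SE (adjusted p = 0.00141, edgeR), or 3.97 without differentiated replicate 1. Wscd1 stood at 11.4 ± 2.43, 1.38 ± 0.573 and 2.66 ± 1.55 CPM and was not called (log2 change 0.92 ± 0.468 SE, edgeR adjusted p = 0.13). Without dedifferentiated replicate 3 the change of Wscd1 was 1.33 (edgeR adjusted p = 0.0189).

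Miat is a long non-coding RNA and had a row in the EV lncRNA table as well. Miat read 71.1, 51.2 and 45.1 CPM in the 3 undifferentiated libraries, 1.18, 1.62 and 1.48 CPM in the differentiated libraries and 27.4, 12.9 and 12.9 CPM in the dedifferentiated libraries. In the cells it rose on withdrawal by a log2 change of 3.64 ± 0.379 SE (adjusted p = 2.88e-05, edgeR). In the EV lncRNA libraries, which held 2614 to 36563 counts each, Miat had 22 counts in those of undifferentiated cells, 44 in those of differentiated cells and 12 in those of dedifferentiated cells. These were 0.0737% (95% Clopper-Pearson interval 0.0462 to 0.112%), 0.0726% (0.0527 to 0.0974%) and 0.0574% (0.0297 to 0.10%) of the pooled EV lncRNA counts. The 3 intervals, which cover counting error only, overlapped, so a difference between stages in vesicles was not detectable at this depth. RefSeq places the miR-711 hairpin within Col7a1. Its hairpin entry had 0 to 14 counts per EV miRNA library and its mature entry 0 or 1, too few to pass the filter, and it was not tested.

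**Figure D4:**
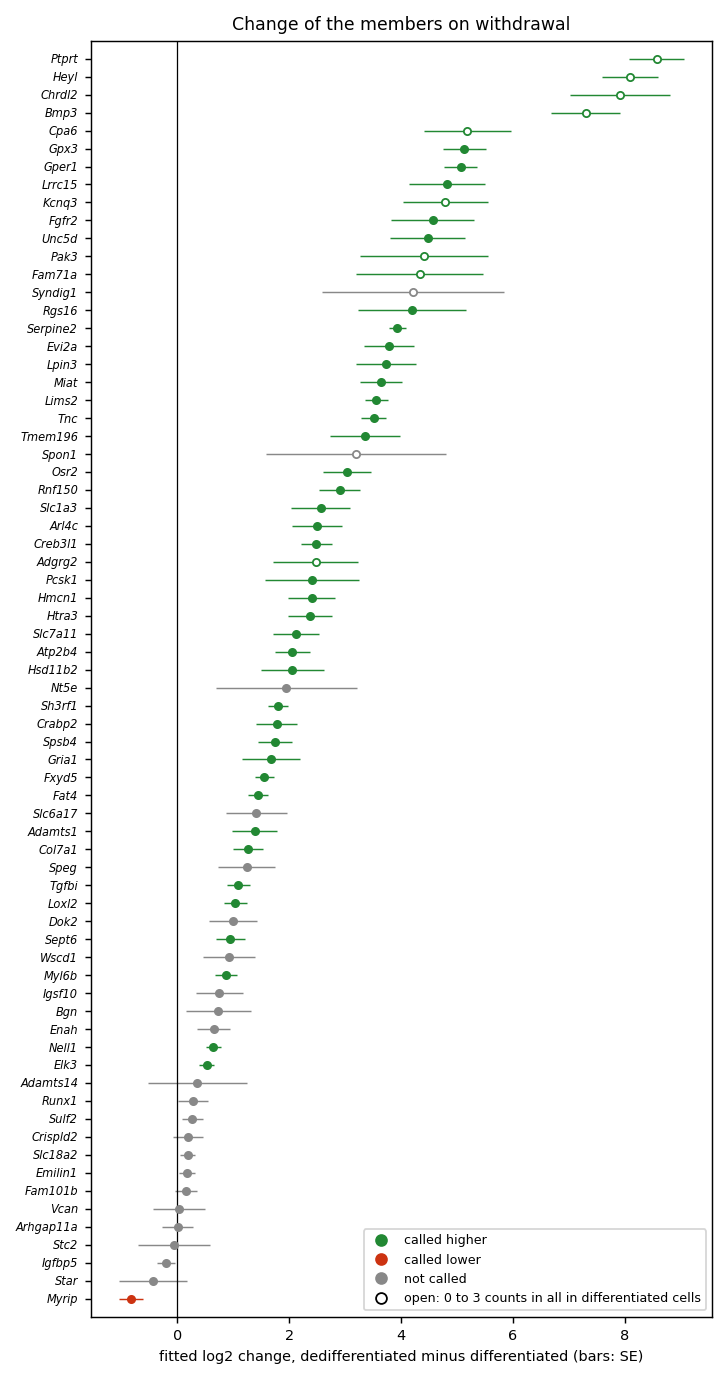
Fitted log2 change of 70 of the 71 members on withdrawal, dedifferentiated minus differentiated (points, edgeR) with its standard error (bars), sorted by size. Of these, 47 are called higher (green), 1, Myrip at -0.83, is called lower (red) and 22 are not called (gray). Open points mark the 11 members drawn with 0 to 3 differentiated counts in all, whose fitted value depends on the prior count and is not a measured size.

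Gene lists written for this tissue and treatment show where these members stand in their pathways. Of the 20 lists, 16 held a member, and 40 of the 71 were on a list. The list of matrix genes held 7 members (9.86% of the 71), 13 of the 428 genes that returned to within 1.5 (3.04%) and 0.781% of tested genes. The list of proteases and inhibitors held 5 members (7.04%), 7 returning genes (1.64%) and 0.762% of tested genes. For transcription regulators the shares were 7.04%, 8.41% and 4.88%, and for growth factors and cytokines 2.82%, 4.67% and 0.771%. No member was on the lists for the cell cycle, the MAPK pathway, interferon response or inflammation. Members and returning genes were both chosen from these libraries, so the shares are descriptions.

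The other genes of the matrix list moved in both directions. Among its other 74 tested genes, 28 were higher and 26 lower in differentiated than in undifferentiated cells, and 12 were higher and 21 lower in dedifferentiated than in undifferentiated cells (edgeR adjusted p below 0.05). Over all tested genes these shares were 31.7%, 27.9%, 16.1% and 13.3%. Of the other 74 protease and inhibitor genes, 19 were higher and 13 lower in dedifferentiated than in undifferentiated cells.

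Of 20 tested target genes of YAP and TEAD, a mechanosensitive coactivator and its DNA-binding partners, only Nt5e was a member. Among the other 19, 14 were lower under dbcAMP, and after withdrawal 4 were lower and 1 higher than in undifferentiated cells. Of all tested genes, 27.9% were lower under dbcAMP, and 13.3% were lower and 16.1% higher after withdrawal. Cyr61, a matricellular protein gene, came closest in dedifferentiated cells, with stage means of 449, 216 and 147 CPM and drops of 1.05 and 1.60. Tgfb2, the TGF-beta 2 ligand, had drops of 1.82 and 1.44. By contrast Myof, for the membrane repair protein myoferlin, fell from 1519 to 200.3 CPM and stood at 1101 CPM after withdrawal, a log2 change from undifferentiated cells of -0.51 (SE 0.105, edgeR adjusted p = 0.00441).

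Among 38 tested genes of immature and repair Schwann cells, Tnc was the only member. Of the other 37, 21 were lower and 9 higher under dbcAMP than in undifferentiated cells, and 10 were lower and 5 higher after withdrawal. Over all tested genes these shares were 27.9%, 31.7%, 13.3% and 16.1%. Bdnf, the neurotrophin gene, fell from 75.6 to 2.67 CPM and stood at 33.1 CPM after withdrawal, a log2 change from undifferentiated cells of -1.24 (SE 0.181, edgeR adjusted p = 5.26e-04). Runx2, another Runt domain gene, fell from 329 to 41.6 CPM and stood at 207 CPM after withdrawal, so that its log2 distance from undifferentiated cells was -0.71 (SE 0.18, edgeR adjusted p = 0.0132), beside a drop of 3.04 for Runx1 on the log2(mean CPM + 1) scale. Whether the 2 genes differ in this was not tested.

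The members lay on 20 chromosomes, with no more than 8 on any of them. The median length of the RefSeq gene span was 44.7 kb for the members and 40.3 kb for the 428 genes that returned to within 1.5, against 23.9 kb over all tested genes.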

How the data were processed

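Messenger RNA of rat Schwann cells in 9 libraries (3 stages, 3 libraries each) is the main measurement. The authors deposited estimated counts per gene from Salmon, and raw counts for the EV miRNA and EV lncRNA libraries. Per the submitters' processing notes, FastQC, Trim Galore, cutadapt, STAR, HISAT2, SAMtools, Picard, bedtools, Salmon, DESeq2 1.26.0 and MultiQC were used, with no role given for each. The genome build and annotation are not given in the sources used here. Where Salmon could not place a read uniquely it splits it, so 1.15% of the table's values are fractional.

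CPM used column totals and unrounded counts. For tests, counts were rounded, filtered with filterByExpr (minimum count 10, 10372 genes kept), scaled by TMM and fitted over all 9 libraries with edgeR 4.0.16 (R 4.3.3) by the quasi-likelihood test, adjusted over all tested genes by Benjamini-Hochberg. DESeq2 1.42.0 was an alternative. On simulated counts for this comparison (3 draws, 200 changed genes each) the fit recovered 82.3% of 2-fold and 95.3% of 4-fold changes with 3.28% false calls. The changed genes were drawn from all tested genes, the others did not change, and the spread was that typical of a gene's level. Members varied more between libraries than tested genes did, so these rates need not hold for them. Where a stage had no count, a fold is set against 3 counts pooled over its libraries. With 1 to 3 counts the ratio is given with a 95% exact interval.

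The members, gene lists and tests were chosen with earlier results of these data known, and the grouping by function was made after the members were known. Members named by rule (50) were the 20 with the largest smaller drop, the 10 with the most undifferentiated reads, the 5 per direction with the smallest p, the 3 on each side of the threshold and up to 4 per gene list. The others were named afterwards, and 1 member is counted in the totals but not reported here. Genes outside the members were named from the lists after their values were seen. Promoters and gene spans are from RefSeq (GRCr8), and all 71 names matched its gene table. The alternatives tried cover the threshold, pseudocount, scaling, filter, tool, replicate block, sequencing project and each library left out.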

Additional observations from a re-analysis of the deposited data

How the results depend on the processing

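The number of genes that met the rule was 201 with a smallest drop of 1, 27 with 2 and 31 with a pseudocount of 5 in place of 1. It was 88 with a pseudocount of 0.5, 73 to 81 under other library scalings, 78 with the median of libraries, and 63 to 86 when each library was left out in turn. The 47 members called higher on withdrawal were 21 of the 35 testable ones when 10 counts were required in every library, since fewer genes were tested. The count was 49 with the DESeq2 Wald test, 43 with an absolute log2 change above 1 as well, and 45 to 51 with each library left out. Myrip was the 1 member called lower in each fit, also with each library left out, but the count is 0 when an absolute log2 change above 1 is required as well. With the replicate block the counts were 51 higher and 1 lower, Enah, Slc6a17, Spon1 and Syndig1 being called as well (edgeR adjusted p = 0.00296, 0.0193, 0.0171 and 0.0419). Same-numbered libraries correlated by 0.028 to 0.304 over 9 pairs, and 7 of 9 libraries correlated best with their own number, which is a hint of pairing from the data. The labels give no pairing, and the dedifferentiated replicate 2 correlated by 0.028 and 0.0823 with its namesakes, under the 0.1 required of every pair, so the fit without the block was kept.

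Over all members and settings, 1128 single-gene results kept direction and side of the threshold, 13 lost and 17 gained a call. Signs turned for 5 members near 0, none of them called, and the cause was not tested. Arhgap11a had log2 changes of -0.015 with library size alone, -0.0082 with 10 counts in every library and -0.31 to 0.35 with each library left out (lowest without differentiated replicate 1). With each library left out, Adamts14 ranged from -0.15 (without dedifferentiated replicate 1) to 1.58, Crispld2 from -0.043 (without dedifferentiated replicate 1) to 0.32, Vcan from -0.15 (without differentiated replicate 2) to 0.20, and Stc2 from -1.06 to 0.72 (without differentiated replicate 1). Settings for members outside the rule for named genes were added after seeing the data. Those planned for EV miRNAs within members were not run, since miR-711 had too few counts to be tested. With 3 counts worth 0.185 to 0.298 CPM, changes of members near that floor at both later stages could not be sized.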
